A study of Homo sapiens
Mus musculus with 3 samples.

Results

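ID2 and ID3 are inhibitors of DNA binding, and their transcripts were followed as 4 rows of the deposited tables, mouse Id2 (ENSMUSG00000020644), mouse Id3 (ENSMUSG00000007872), human ID2 (ENSG00000115738) and human ID3 (ENSG00000117318). The members were chosen by identifier, as 4 of 60736 rows, of which 27998 are mouse and 32738 human. Mouse Id2 had been picked because its difference between the mouse lines depended on the protocol, so its values are given below as a description, with no test in any comparison of mouse wells. The tables pair no identifier with a symbol, and no sequence of these genes is shown.

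ID proteins carry a helix-loop-helix domain without the basic region that contacts DNA. They pair with E proteins, the products of TCF3, TCF4 and TCF12, and hold them in dimers that cannot bind their sites. In lymphocytes E proteins drive the early T-cell and B-cell programmes. ID3 is known as an early target of signalling through the antigen receptor, and ID2 is known for its role in effector CD8 T cells, natural killer cells and innate lymphoid cells.

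The wells came from 3 libraries made on the ICELL8 cx, a system that images nanowells on a chip and adds a known barcode to the transcripts of each well. Each library was prepared from the same kind of cell suspension, an equal mixture of 4 lymphocyte lines, namely EL4 (mouse T cells), IVA12 (mouse B cells, a hybridoma), Jurkat (human CD4 T-cell leukemia) and TALL-104 (human CD8 T-cell leukemia, which is grown with IL-2). Of the libraries, 2 used the official protocol (3'DE, here 3'DE-1 and 3'DE-2), in which cDNA is amplified with the barcoding primers still present. The remaining library, 3'DE-UMI, used a modified protocol in which these primers are digested before amplification so that unique molecular identifiers (UMIs), which mark single molecules, can be counted. Per the study's supplement, 3'DE-2 and 3'DE-UMI were made from one cell mixture and 3'DE-1 from another, so the protocol was compared within 1 mixture only by 3'DE-2 and 3'DE-UMI. Nothing in the labels says that the 3'DE libraries were separate cultures, so p-values measure the spread between these libraries, which may be technical.

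The tables held 35581264, 109702878 and 44883618 reads in 3'DE-1, 3'DE-2 and 3'DE-UMI, and 3833017 UMIs in the last. A well was kept with at least 1000 reads and 200 genes, which left 1635, 1432 and 1293 wells, of which 180, 175 and 36 were mixed, with at least 10% of their reads from the other species. The other wells fell into 2 mouse and 2 human clusters. No gene symbols could be matched, so the clusters were not checked against cell type markers and stay numbered. Mouse cluster 1 held 473, 498 and 470 wells, mouse cluster 2 held 449, 275 and 230, human cluster 1 held 406, 448 and 527, and human cluster 2 held 127, 36 and 30. Human cluster 2 was also the shallowest, with medians of 4507, 9509 and 5240 reads per well, while the medians of the other clusters lay between 17834 and 38469. The 4 members were left out of every clustering. Kept barcodes that also occurred in another library numbered 481 between the 3'DE libraries, 449 between 3'DE-1 and 3'DE-UMI, and 387 between 3'DE-2 and 3'DE-UMI. Levels are given as CPM, the gene's count in every 1000000 reads of the same species in the wells of that cluster. Their exact 95% Poisson intervals cover the counting error of reads only. Reads are amplified copies, so these intervals are too narrow for molecules. The same holds for intervals of ratios and log2 differences of reads.

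Mouse Id2 was the gene on which the choice rested. In mouse cluster 1 its level was 109 CPM in 3'DE-1 (interval 104 to 115), 176 CPM in 3'DE-2 (172 to 180) and 285 CPM in 3'DE-UMI (277 to 293), from 1450, 7079 and 5155 reads. In mouse cluster 2 it was 3.77 CPM (2.60 to 5.30), 11.1 CPM (9.48 to 12.9) and 0.491 CPM (0.159 to 1.15), from 33, 171 and 5 reads. Every library thus held more Id2 in cluster 1, and 3'DE-UMI had both the highest level in cluster 1 and the lowest in cluster 2. The difference, cluster 1 minus cluster 2, was 4.85 on the log2 scale in 3'DE-1 (4.36 to 5.40), 3.99 in 3'DE-2 (3.77 to 4.22) and 9.18 in 3'DE-UMI (7.96 to 10.8). Within cluster 1 alone 3'DE-UMI stood 1.04 above the 3'DE mean on the log2 scale. Within cluster 2 it differed from the 3'DE mean by -3.72, where it had 5 reads. Id2 was chosen on this contrast, so its size is a description and gives no support.

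**Figure D1:**
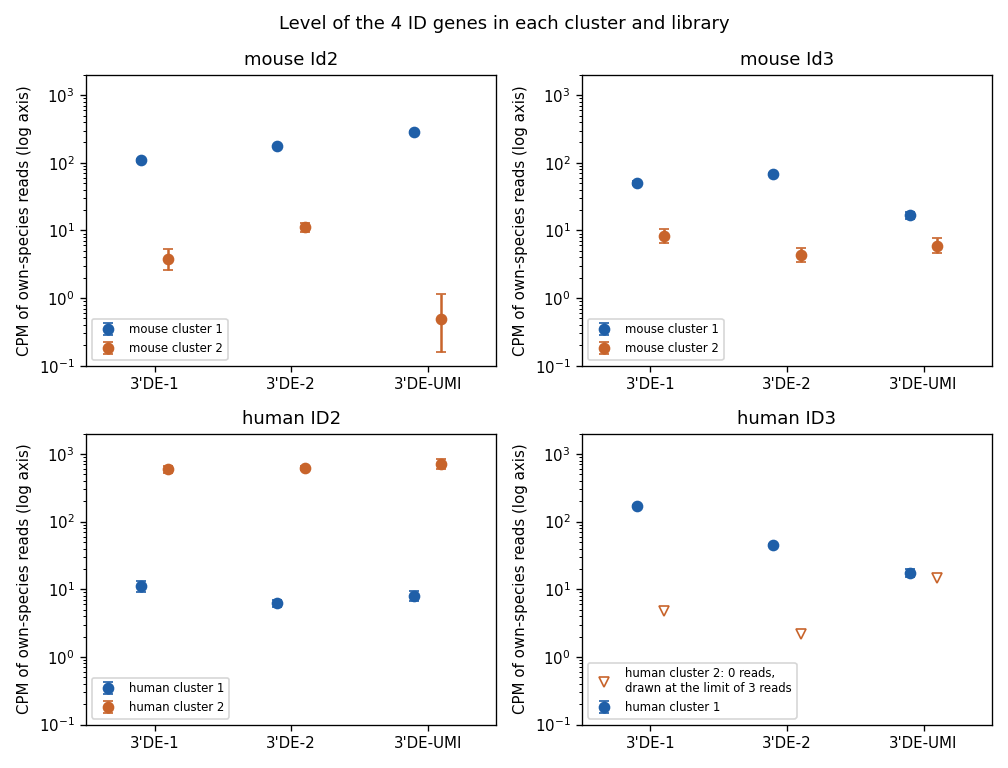
Level of each gene in each cluster and library, in CPM of reads of its own species on a log axis. Points are libraries, bars are exact 95% Poisson intervals (counting error of reads only, too narrow for molecules) and open triangles mark a cluster with 0 reads at the limit of 3 reads. Id2 in mouse cluster 2 is at 0.491 CPM in 3'DE-UMI, ID3 in human cluster 1 goes from 170 to 17.4 CPM, and ID2 in human cluster 2 stays between 590 and 706 CPM.

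Few wells carried the Id2 reads of mouse cluster 2. Of its wells, 7 of 449, 32 of 275 and 2 of 230 held an Id2 read, and a single well held 24 of 33, 70 of 171 and 4 of 5 of the reads. Without that well the log2 difference between the clusters was 6.73 in 3'DE-1 and 4.72 in 3'DE-2, while in 3'DE-UMI 1 read was left. This alternative was chosen after seeing the data. Most of the 32 wells of 3'DE-2 had 1 read, and their median depth was 100459 reads against 19513 in the wells without Id2.

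The richest Id2 well of mouse cluster 2 differed from its cluster in other genes too. In 3'DE-2 it had 274793 reads, of which 1.11% came from 103 genes that, in both other libraries, reached 50 CPM in cluster 1 and were at least 16 times higher there. Those genes took a median of 2.85% of the reads in wells of cluster 1 and 0.0942% in wells of cluster 2 without Id2. In 3'DE-1 the richest well had 0.128% of its reads in 101 such genes, against 2.24% in cluster 1 and 0.0120% in cluster 2 wells without Id2. The wells of cluster 2 with Id2 as a group had medians of 0.0242% in 3'DE-1 and 0.0586% in 3'DE-2, from 7 and 32 wells. In 3'DE-UMI 2 such wells had 0.0855% in 107 genes, against 0.0122% in wells without Id2. The wells with Id2 as a group thus held a smaller share than those without in 3'DE-2, and a larger one in 3'DE-1 and 3'DE-UMI. Whether a second cell lay in the richest wells was not tested.

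A rough background of stray Id2 reads comes from human wells, which should lack the mouse gene but could hold up to 10% mouse reads. With a limit of 5% human cluster 1 kept 253 of 406 wells in 3'DE-1, 263 of 448 in 3'DE-2 and 494 of 527 in 3'DE-UMI. Mouse cluster 2 kept 445 of 449, 245 of 275 and 229 of 230. A smaller part of the human wells thus passed the stricter limit, and the shares below are not from like wells. An Id2 read was found in 0.375% of 533, 6.61% of 484 and 0.718% of 557 human wells, with median depths of 21426, 34368 and 16457 reads. In mouse cluster 2 the shares were 1.56%, 11.6% and 0.870% (exact intervals 0.629 to 3.19, 8.10 to 16.03 and 0.105 to 3.11), at median depths of 20307, 21748 and 33649 reads. The intervals of the human wells were 0.0455 to 1.35, 4.57 to 9.21 and 0.196 to 1.83. In 3'DE-UMI 4 human wells held 107 Id2 reads, which came from 4 UMIs.

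UMIs gave a smaller difference between the mouse clusters than reads did in the same library. Id2 had 282 UMIs in mouse cluster 1, a level of 181 CPM among UMIs (160 to 203). It had 3 UMIs in cluster 2, a level of 3.22 CPM. The UMI ratio was 56.0 (19.0 to 273), against 580.1 (248 to 1787) for reads. On the log2 scale the UMI ratio was 5.81 (4.25 to 8.10). In cluster 1 there were 18.3 Id2 reads per Id2 UMI, where all genes together had 11.6. In cluster 2 the 3 UMIs lay in 3 wells and the 5 reads in 2 wells, so no such ratio is given. Reads and UMIs were counted by separate pipelines, and the cause of this mismatch was not tested. The 3 UMIs of cluster 2 limit the UMI ratio of the clusters, and the intervals of the UMI and read ratios overlap.

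Id2 reads sat in fewer wells of mouse cluster 1 with the modified protocol, and the median such well held more of them. An Id2 read was found in 273 of 473 (57.7%), 289 of 498 (58.0%) and 172 of 470 wells (36.6%), and the median well with Id2 had 4, 9 and 19 reads. In 3'DE-UMI 99 of 162 wells with an Id2 UMI had exactly 1, 36 had 2 and 27 had 3 or more, up to 7. The median well with 1 UMI had 12 reads. When wells were thinned to 5000 reads, leaving out 15, 20 and 13 shallower wells, the shares were 31.2%, 37.0% and 30.4%. Thinned to 2000 reads they were 15.9%, 20.9% and 21.9%. Each thinned share came from a single random draw. At full depth 3'DE-UMI was below both 3'DE libraries. At 5000 reads it was close to 3'DE-1 and at 2000 reads close to 3'DE-2, and such small gaps set no order.

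**Figure D2:**
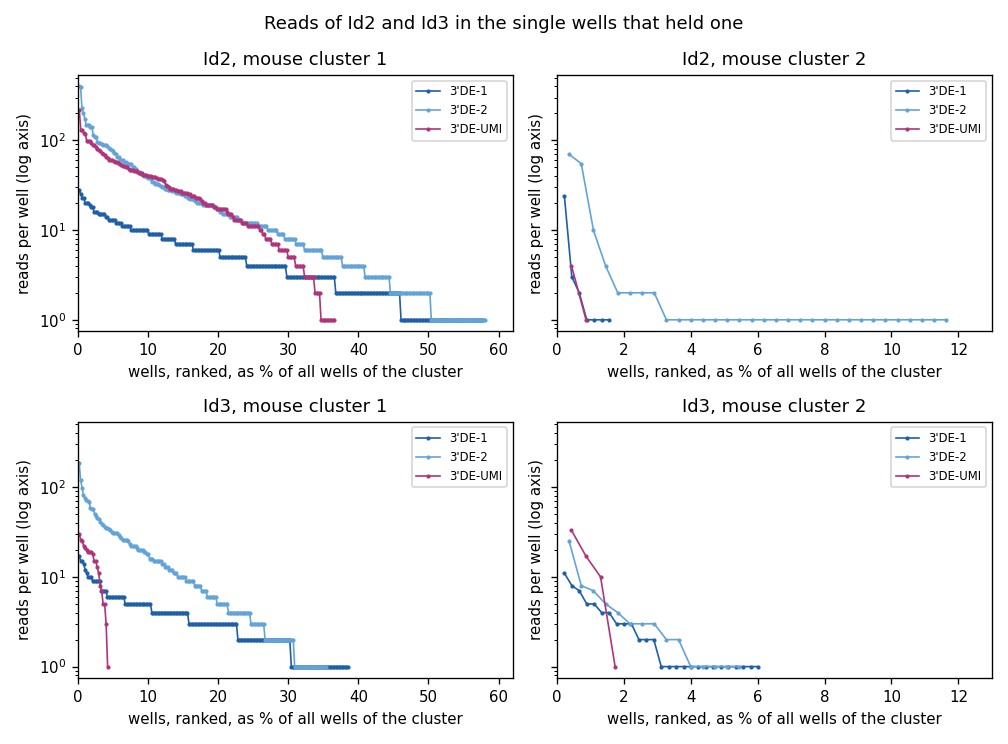
Reads of Id2 and Id3 in each mouse well that held at least 1, on a log axis, with wells ranked from most to fewest reads and the rank given as a percentage of all wells of that cluster and library. In mouse cluster 1 the 3'DE-UMI curve for Id2 ends at 36.6% of wells and for Id3 at 4.26%, where the 3'DE curves end between 35.3% and 58.0%.

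Mouse Id3 was also higher in mouse cluster 1. Its level there was 50.3 CPM in 3'DE-1, 69.1 CPM in 3'DE-2 and 16.7 CPM in 3'DE-UMI, from 668, 2779 and 302 reads. In mouse cluster 2 it was 8.35, 4.34 and 5.99 CPM, from 73, 67 and 61 reads. The clusters did not overlap, and the 3'DE-UMI value in cluster 1 was the lowest of that cluster while the one in cluster 2 lay between the 3'DE values. Cluster 1 was higher by 2.91 on the log2 scale (SE 0.48, adjusted p = 0.00184, edgeR quasi-likelihood test on 6 sums with the library as a block, Benjamini-Hochberg over 11268 genes). In that comparison 40.5% of all genes tested were called. The wells had been grouped by other genes of the same wells, so this test is not independent of the grouping.

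Id3 was lower with the modified protocol in mouse cluster 1. It fell by 1.97 on the log2 scale in 3'DE-UMI (SE 0.44, adjusted p = 0.00481, edgeR quasi-likelihood test with Benjamini-Hochberg adjustment on 3 sums), in a comparison that called 13.5% of 11789 genes. Within the shared mixture, 3'DE-2 against 3'DE-UMI, the difference was -2.12, with no test. The fit of 2 libraries against 1 assumes that the lone 3'DE-UMI library varies like the 3'DE libraries, and an exact permutation test of 2 against 1 could not give a p below 0.333. With 1 such library, the protocol and the library cannot be told apart.

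In mouse cluster 2 the Id3 difference between the protocols was -0.35 (SE 0.88, edgeR adjusted p = 0.880), where 2.37% of 11625 genes were called. It turned to 0.40 without 3'DE-1 and to 0.32 with wells weighted equally. The difference between the clusters was 2.59 in 3'DE-1, 3.99 in 3'DE-2 and 1.48 in 3'DE-UMI on the log2 scale. A single well held 33 of the 61 Id3 reads of cluster 2 in 3'DE-UMI, and without the richest well of each library, an alternative chosen after seeing the data, the differences were 2.82, 4.65 and 2.60. The edgeR quasi-likelihood test of whether it depended on the protocol gave -1.72 (SE 0.62, adjusted p = 0.133), in a comparison that called 2.17% of 13252 genes. With wells weighted equally it gave -2.44 (adjusted p = 0.0423). In simulated data the test of dependence on the protocol recovered 4% of changes of 2 on the log2 scale, so a missing call says little. For Id3, 20 UMIs in cluster 1 and 5 in cluster 2 gave 12.8 and 5.37 CPM among UMIs, a ratio of 2.38 whose interval of 0.868 to 8.13 includes equal levels.

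Id3 was read in fewer wells of mouse cluster 1 with the modified protocol. A read was found in 182 of 473 (38.5%), 176 of 498 (35.3%) and 20 of 470 wells (4.26%). All 20 wells of 3'DE-UMI had exactly 1 Id3 UMI, read 15.1 times on average. Thinned to 5000 reads per well the shares were 16.6%, 15.3% and 2.41%, and thinned to 2000 they were 7.86%, 9.92% and 1.06%. Here 3'DE-UMI was the lowest at both fixed depths, while for Id2 it was close to a 3'DE library at each of them. The difference between both genes in this respect was not tested. In human wells, which should lack the gene, an Id3 read was found in 0.375%, 2.07% and 0.359%, with the limit of these wells given above for Id2.

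**Figure D3:**
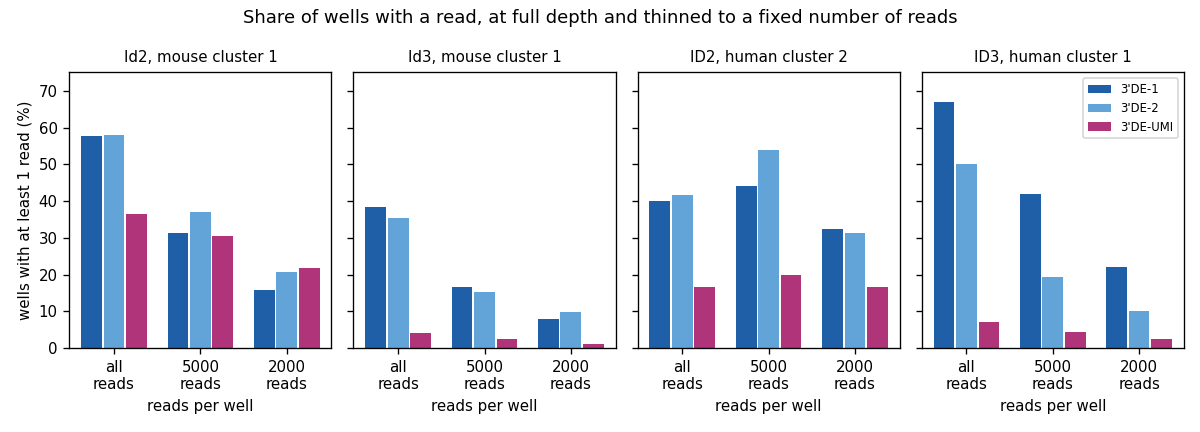
Share of wells with at least 1 read of each gene in the cluster where it is highest, for all reads and after each well was thinned to 5000 or 2000 reads (shallower wells left out). At 2000 reads the 3 libraries give 15.9%, 20.9% and 21.9% for Id2 but 7.86%, 9.92% and 1.06% for Id3.

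Wells with both mouse genes were counted as well. In mouse cluster 1, 111 of 473, 112 of 498 and 10 of 470 wells held both, 162, 177 and 162 held Id2 only, 71, 64 and 10 held Id3 only, and 129, 145 and 288 held neither. Id3 was found in 40.7%, 38.8% and 5.81% of wells with Id2 and in 35.5%, 30.6% and 3.36% of wells without it. Wells with Id2 were also deeper, with median depths of 30567, 49724 and 45153 reads against 24494, 21316 and 21989, and the part of depth in these shares was not tested. The ratio of Id2 to Id3 reads within the cluster, which needs no scaling between libraries, was 2.17, 2.55 and 17.1, and 14.1 for UMIs. These are ratios of reads with no scaling for length, so only their change between libraries can be read.

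Human ID2 was highest in the shallow human cluster 2. Its level there was 590 CPM in 3'DE-1 (interval 532 to 653), 621 CPM in 3'DE-2 (580.2 to 664) and 706 CPM in 3'DE-UMI (595 to 830.3), from 376, 867 and 145 reads. In human cluster 1 it was 11.2, 6.24 and 7.97 CPM, from 114, 290 and 121 reads. Cluster 2 was higher 52.7-fold, 99.5-fold and 88.5-fold in the 3 libraries, with no overlap, and 49.4-fold by UMIs (14.5 to 155), where cluster 2 had 6 UMIs. Those 6 UMIs gave 405 CPM among UMIs (149 to 883). With wells weighted equally the levels were 612, 677 and 569 CPM in cluster 2 and 11.5, 15.5 and 9.95 CPM in cluster 1. The 99.5-fold value of 3'DE-2 thus depends on the weight of its deep wells. ID2 stood above 97.7%, 96.7% and 94.2% of the human genes detected in cluster 2.

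The fitted difference for ID2, cluster 1 minus cluster 2, was -6.14 on the log2 scale (SE 0.96, adjusted p = 4.14e-08, edgeR quasi-likelihood test with Benjamini-Hochberg adjustment). This comparison called 3.99% of 9493 genes. The median difference of all genes tested was 1.70 towards cluster 1, but 0.81 with UMI counts and 2.63 without 3'DE-1. Relative to 1.70 ID2 stood at -7.84, further out than its CPM differences of -5.72, -6.64 and -6.47 in the single libraries. Without 3'DE-1, which held 127 wells of cluster 2 against 36 and 30 in the others, the fitted ID2 difference was -6.35. Its adjusted p was 0.162 in the same edgeR test. As for the mouse clusters, the wells had been grouped by other genes of the same wells.

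The level of ID2 in human cluster 2 was of like size under both protocols, while the share of wells with a read was lower in 3'DE-UMI. 3'DE-UMI exceeded the 3'DE mean by 0.22 on the log2 scale, where these had an SD of 0.05, a comparison that was not tested. An ID2 read was found in 51 of 127 (40.2%, exact interval 31.6 to 49.2), 15 of 36 (41.7%, 25.5 to 59.2) and 5 of 30 wells (16.7%, 5.64 to 34.7). The interval of 3'DE-UMI overlaps those of both 3'DE libraries, and its 145 reads came from 6 UMIs in 5 wells. Thinned to 2000 reads the shares were 32.5%, 31.2% and 16.7%, from 117, 32 and 30 wells.

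In human cluster 1 the ID2 difference between the protocols was 0.04 (SE 0.73, edgeR adjusted p = 0.978), in a comparison that called 12.2% of 13699 genes. It was -0.23 with wells weighted equally and -0.33 without 3'DE-2. In simulated data this comparison recovered 29% of changes of 2 on the log2 scale, a share that need not hold for ID2. An ID2 read was found in 5.91%, 4.69% and 1.90% of these wells, and in 0.217%, 0.776% and 0.714% of mouse wells, at median depths of 26536, 38469 and 17834 reads for human cluster 1 and 23714, 31942 and 31409 for mouse wells. The exact intervals of both shares were apart in 3'DE-1 and 3'DE-2 and overlapped in 3'DE-UMI (0.914 to 3.46 and 0.232 to 1.66). Mouse wells are a rough background only, since the human and mouse wells were not alike in reads of the other species. The reads of human cluster 1 were spread over 24, 21 and 10 wells. In these wells a median of 0.0739%, 0.0351% and 0.132% of the reads came from genes at least 16 times higher in cluster 2, against 0.0443%, 0.0352% and 0.0222% in the wells of cluster 1 without ID2 and 5.10%, 4.35% and 4.58% in cluster 2 itself. In 3'DE-1 and 3'DE-UMI the wells with ID2 thus held more of these reads than those without, and in 3'DE-2 a like share. The part of this in the ID2 level was not tested.

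Human ID3 had the opposite pattern, with reads in human cluster 1 and 0 reads in human cluster 2. Its level there was 170 CPM in 3'DE-1 (interval 162 to 178), 45.4 CPM in 3'DE-2 (43.5 to 47.3) and 17.4 CPM in 3'DE-UMI (15.4 to 19.6), from 1731, 2109 and 264 reads. The 3'DE libraries differed from each other 3.75-fold, the widest such gap of the members outside their low clusters. Human cluster 2 had 0 ID3 reads in 0 of 127, 0 of 36 and 0 of 30 wells, which at 3 counts of each total allows up to 2.36%, 8.33% and 10% of wells with a read and does not limit the share of cells that express the gene. Against a floor of 3 reads per library, cluster 1 was at least 36.1-fold higher in 3'DE-1 and at least 21.1-fold higher in 3'DE-2. In 3'DE-UMI the floor stood at 14.6 CPM, near the level of cluster 1, and a difference was not detectable at this depth.

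ID3 passed the filter on low counts only through cluster 1, so neither a test nor a fitted fold between the human clusters is given. ID3 reads were found in 0.542%, 6.08% and 0% of mouse wells, the last being 0 of 700 wells.

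The protocol comparison of ID3 in human cluster 1 rested on the choice of library and of reads. ID3 fell by 2.45 on the log2 scale in 3'DE-UMI (SE 0.67, adjusted p = 0.0329, edgeR quasi-likelihood test with Benjamini-Hochberg adjustment). By absolute size ID3 ranked 3116 of 13699 genes in this comparison, whose share of genes called is given above with ID2. Against 3'DE-2 alone, which came from the same mixture, the ID3 difference was -1.28, and against 3'DE-1 alone it was -3.13, both with no test. With UMIs in place of reads it was -1.41 and no longer passed (edgeR adjusted p = 0.336). ID3 had 40 UMIs in human cluster 1, a level of 36.5 CPM among UMIs, with 6.60 reads per UMI where all genes had 13.9.

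An ID3 read was found in 272 of 406 (67.0%), 224 of 448 (50%) and 38 of 527 wells (7.21%) of human cluster 1, with medians of 4, 4 and 5 reads in such wells. Thinned to 5000 reads the shares were 41.9%, 19.5% and 4.30%, and thinned to 2000 they were 22.0%, 10.3% and 2.47%. The order of the libraries was the same at each depth. Wells with both human genes numbered 17, 12 and 0 in cluster 1, where ID2 alone was found in 7, 9 and 10 wells and ID3 alone in 255, 212 and 38.

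**Figure D4:**
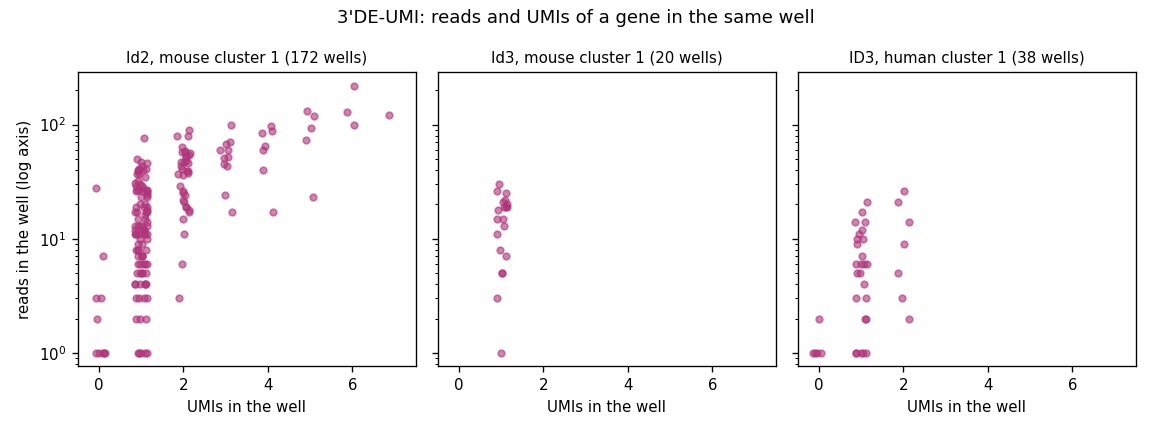
Reads against UMIs of the same gene in the same well of 3'DE-UMI, with reads on a log axis, a small sideways shift to separate points, and 1 point per well with a read. Wells reach 7 UMIs for Id2, 2 for ID3 and 1 for Id3.

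The pattern of each gene over the 6 sums of its species, 2 clusters in 3 libraries, was compared with that of other genes of at least 50 CPM on average. Pearson's r of log2(CPM + 1) is given as a description, since the 6 sums share libraries and clusters. Of 2991 mouse genes, 61 reached 0.95 with Id2 and 50 with Id3, and of 3024 human genes 104 did so with ID2 and 28 with ID3. The gene most like Id2, ENSMUSG00000021213 (r = 0.996), stood at 152, 221 and 293 CPM in the higher mouse cluster against 6.63, 11.5 and 1.87 CPM. The gene most like ID2, ENSG00000105374 (r = 0.999), had 336, 365 and 477 CPM in human cluster 2 and 5.21, 1.81 and 3.03 CPM in cluster 1. The gene most like ID3, ENSG00000162174 (r = 0.989), had 201, 150 and 31.7 CPM in human cluster 1 and 0 reads in cluster 2. Id2 and Id3 had r = 0.77 with each other, and ID2 and ID3 had r = -0.93.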

How the data were processed

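The deposited tables held raw counts per gene and well barcode. The authors had made the read counts with STAR 2.7.0b in mappa, and the UMI counts of 3'DE-UMI with Drop-seq tools and STAR 2.4.2a, on a combined hg19 and mm10 reference. The study's methods state that the reads were downsampled before these pipelines, and the totals of the tables still differed between libraries. Reads are not independent molecules.

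The members and lists were chosen with earlier results of these data known. The named genes are the members and, by rule, the gene most like each. Single-species wells were clustered with scanpy 1.11.5 on all libraries (10000 counts per well, log scale, 1000 variable genes, 20 components, 15 neighbours, Leiden resolution 0.1), without the members. No doublet caller was run, and mixed wells were left out. To keep tested genes out of the grouping, genes were split into 2 sets and wells were clustered on 1 set to test the other, which placed 99.5% to 99.9% of wells as the full clustering did. Sums of reads, 1 for each cluster of a library, were tested in edgeR 4.0.16 (filterByExpr, TMM, two-sided quasi-likelihood test, Benjamini-Hochberg over all genes, threshold 0.05), with the library as a block between clusters, since both clusters of a library share its chip and depth. DESeq2 1.42.0 was an alternative. The tests were tried first on simulated data, with a change of 2 on the log2 scale in 200 genes. Of these, 97% were recovered between mouse clusters and 76% between human clusters. For the protocol the share was 45% in mouse cluster 1, 41.5% in mouse cluster 2 and 29% in human cluster 1. For the dependence of the mouse clusters on the protocol it was 4%. A missing call in the protocol and dependence tests therefore does not show that a change was absent. The simulation gave every gene the same spread beyond counting error and changed only genes above a minimum of reads. Its shares thus need not hold for a given gene. The planned names of lines, marker lists, mitochondrial genes and the E-protein list could not be matched to identifiers and were not used here.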

Additional observations from a re-analysis of the deposited data

Results flagged for a closer look

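Mixed wells, with at least 10% of reads from the other species, entered no comparison, yet held reads of all 4 genes. Of 391 mixed wells in the 3 libraries, 24 held an Id2 read, 12 an Id3 read, 39 an ID2 read and 79 an ID3 read, from 326, 55, 469 and 548 reads. In 3'DE-1 an ID3 read was found in 55 of 180 mixed wells, in 3'DE-2 in 22 of 175 and in 3'DE-UMI in 2 of 36. Their values had no comparison with single-species wells. No group had the 4 samples that a search for outlying libraries needs.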

How the results depend on the processing

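Of 139 recomputed values 103 were labelled as unchanged. These kept their direction and side of the threshold or moved by less than the spread between replicates. Counts of genes called have no direction or threshold, and were labelled unchanged if they stayed within a set fold of the main count. The limits are depth in human cluster 2, few UMIs of Id3 and ID2, and a single 3'DE-UMI library. Marker-based assignment of wells and the mitochondrial filter were not run, since identifiers could not be matched, and the protocol and its dependence on cluster had no test without a 3'DE library, and no value without 3'DE-UMI. The causes of the changes below were not tested.

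For Id3 the call between mouse clusters held in all 10 alternatives (2.24 to 3.50 when leaving out a library) and the call for the protocol in mouse cluster 1 in all 6 with a test (-2.12 to -1.81 with no test when leaving one out). Its protocol value in mouse cluster 2 reversed to 0.32 with wells weighted equally and ranged from -0.92 to 0.40 when leaving out a library. Its dependence on the protocol passed with wells weighted equally at -2.44, and ranged from -2.49 to -0.94. ID2 between human clusters ranged from -6.39 to -5.72 when leaving out a library and lost its call without 3'DE-1. With wells weighted equally it was -5.45 and kept its call. Its protocol value in human cluster 1 reversed to -0.23 with wells weighted equally and ranged from -0.33 to 0.45. The planned test of ID3 between human clusters is not given, since 1 cluster had no read. The ID3 protocol value in human cluster 1 was -1.41 with UMI counts and -3.13 to -1.28 when leaving out a library.

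Id2 between the mouse clusters was 4.84 in 3'DE-2 with wells weighted equally, 6.73 and 4.72 in the 3'DE libraries without the richest well of cluster 2, and 5.81 in 3'DE-UMI with UMI counts. Id3 between the mouse clusters of 3'DE-UMI was 2.60 without the richest well of cluster 2. The share of wells in 3'DE-UMI minus the mean of the 3'DE libraries was -21.3 percentage points for Id2, -32.7 for Id3, -24.2 for ID2 and -51.3 for ID3, in the cluster where each is highest. For Id2 it was -22.2 with 5000 reads per well, -21.8 with a limit of 5%, -23.4 with UMI counts, -3.71 thinned to 5000 reads and 3.53 thinned to 2000. For Id3 thinning gave -13.5 and -7.82, and for ID3 -26.4 and -13.7. For ID2 it was -28.9 with 5000 reads per well, -32.9 with a limit of 5%, and -28.9 and -15.2 thinned.

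Genes called between mouse clusters numbered 4562, 2981 without the replicate block and 2910 to 5078 when leaving out a library. Between human clusters they numbered 379, 1537 with DESeq2, 122 without the replicate block and 30 to 460 when leaving out a library. With UMI counts the protocol calls were 953 against 1594 in mouse cluster 1 and 787 against 1675 in human cluster 1, where equal weights gave 2669. The dependence of the mouse clusters on the protocol called 288 genes, 50 with DESeq2 and 7 with UMI counts. The block pairs clusters of one library, and no other call named here changed without it.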

Other observations

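In mouse cluster 1 of 3'DE-UMI, Id2 was read in 19.7% of the wells in the lowest depth class, 31.8% in the middle and 58.3% in the highest of equal-sized classes, at median depths of 11540, 30233 and 67047 reads, while its level was 335, 267 and 284 CPM. Id3 was read in 0.637%, 4.46% and 7.69% of the same wells. In 3'DE-2 the ID3 level in human cluster 1 was 76.9, 73.8 and 39.8 CPM from the lowest to the highest depth class.

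Barcodes that were not kept for their depth numbered 69, 86 and 267. In 3'DE-UMI 4 of the 267 held 26 ID2 reads, and none held a read of the other 3 genes.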
